A study of Mus musculus with 2 samples.

Results

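Mural and renin-type cells of the mouse kidney, that is, pericytes, vascular smooth muscle cells and the renin cells of the afferent arteriole, were examined in single-cell RNA profiles of sorted kidney stroma. A cell was taken as a member when at least 3 of the 8 transcripts Rgs5, Notch3, Mcam, Myh11, Ren1, Mylk, Higd1b and Cox4i2 were detected. Pdgfra had to be at 0, and at most 1 of the 4 genes Pecam1, Ptprc, Epcam and Tyrobp could be detected. The rule found 259 members among 11708 retained barcodes. They were 194 of 10656, or 1.82% (95% exact binomial interval 1.58 to 2.09), in the library labelled sham, and 65 of 1052, or 6.18% (4.80 to 7.81), in the library labelled UUO.

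Both libraries came from kidneys of FVBN mice. The cells were sorted as PDGFRa+b+, carrying the 2 receptors for platelet-derived growth factor. They were profiled in droplets from the 3′ end of the RNA, where a unique molecular identifier (UMI) marks every RNA molecule that was read. Members had no Pdgfra UMI by the rule, so they lacked RNA reads of 1 of the 2 receptors. Why was not tested. The shares above are of barcodes from this sort and do not measure abundance in the kidney. One group was sham-operated and the other was taken at day 10 after unilateral ureteral obstruction (UUO), a surgical model of kidney fibrosis, with 1 library in each group. The number of animals behind each library, and the origin of the eGFP transcript that is counted beside the mouse genes, are not given in the sources used here. Because there is no replicate, no test between the groups was possible, and every interval below covers counting error only.

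Pericytes sit on capillaries inside the basement membrane and, like smooth muscle cells, depend on signalling through PDGF receptor beta and NOTCH3. Smooth muscle cells of arterioles add a contractile apparatus built on smooth muscle actin (Acta2), smooth muscle myosin heavy chain (Myh11) and their regulators. Renin cells are modified arteriolar smooth muscle cells at the glomerular pole, which make and store renin, the protease that starts the renin-angiotensin cascade, and which share Rgs5 and part of the contractile programme with their neighbours.

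The members held 1713281 UMIs in the library labelled sham and 384896 in that labelled UUO, with medians of 8628 and 4997 UMIs per cell. Retained barcodes as a whole had medians of 7824 and 4154 UMIs. The libraries shared 16 barcodes, and 0 of these belonged to a member. Spp1 and Timp1, which are known to go with kidney injury, were higher in the library labelled sham, also within the members (8161 against 759 CPM for Spp1 and 548 against 80.5 for Timp1, CPM being counts scaled to the same summed total). This runs against the labels, so the groups are named as labelled and directions are stated between libraries, not between conditions. UMIs of Xist without any from Y-linked genes were seen in 76 members labelled sham and 18 labelled UUO, and the reverse in 51 and 23. Cells of both patterns were thus present in each library. Another 33 and 4 members held UMIs of both kinds, and 34 and 20 of neither. The source of the mixed cells was not tested.

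Most members met the rule only just. In the library labelled sham, 138 of 194 members (71.1%) had exactly 3 of the 8 markers, 33 had 4 and 23 had 5 or more. In the library labelled UUO, 34 of 65 (52.3%) had exactly 3, 18 had 4 and 13 had 5 or more. Mylk, the myosin light chain kinase, was part of the set in 132 of the 138 and 29 of the 34 cells with exactly 3 markers. It is also widespread outside the members, with a UMI in 76.5% and 54.0% of the Pdgfra-positive fibroblasts of the libraries labelled sham and UUO. Without Mylk, 62 and 36 members would still have had 3 markers. The combination of Rgs5, Ren1 and Mylk alone was the most frequent, in 24 members labelled sham and 12 labelled UUO. Just outside the threshold lay 475 and 83 barcodes with exactly 2 markers that met the other criteria.

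**Figure D1:**
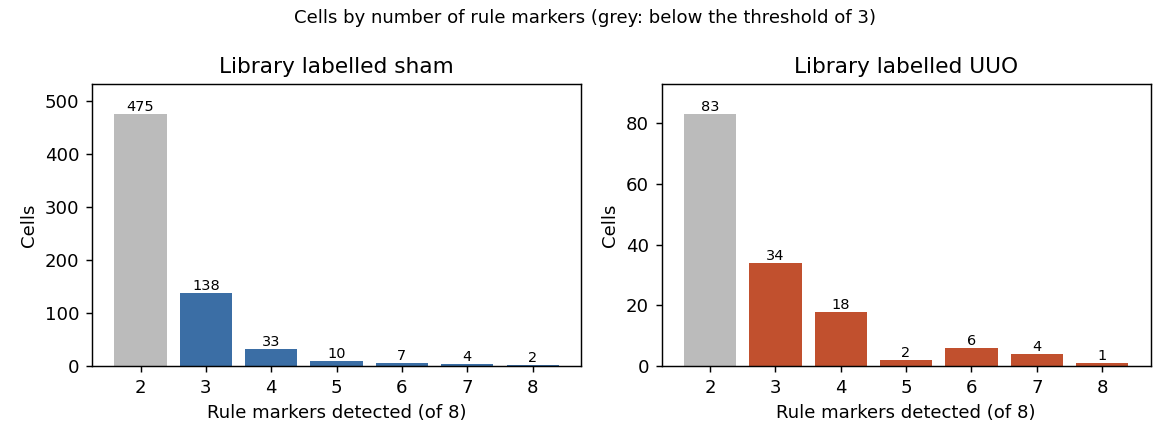
Cells by number of the 8 rule markers detected, in the library labelled sham and the library labelled UUO (x axis, markers detected; y axis, number of cells). Cells with exactly 3 markers, 138 and 34, outnumbered the 23 and 13 cells with 5 or more.

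Ren1, Rgs5 and Myh11 belong to the rule, so their levels on the 2 sides of its threshold are a description that the rule shapes. Members with exactly 3 markers had 1145 CPM of Ren1 in the library labelled sham, against 35.5 in cells with exactly 2, and 677 against 154 in the library labelled UUO. Rgs5, a regulator of G protein signalling, stood at 142 against 66.6 and at 555 against 160 CPM. Myh11, by contrast, was at 26.4 against 26.3 CPM labelled sham, and Dcn, the fibroblast proteoglycan decorin, at 2112 against 2528. In the library labelled UUO Myh11 was at 44.2 against 21.7 CPM and Dcn at 4608 against 6654.

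By their clusters, the name given to the cells held for some of the members only. Clustering the 259 cells by their variable genes gave 7 groups, and all but cluster 6 were made almost entirely of 1 library, so that library and kind of cell cannot be told apart in them. Clusters 1 (76 cells labelled sham) and 2 (62 cells labelled sham) were led by Inhba, Fxyd6, Nkd2 and Has1 and by Clca3a1, Serpina1b and Lpl. They held Dcn at 2932 and 1983 CPM, Ren1 at 37.8 and 127 CPM, and Rgs5 at 129 and 113 CPM. Cluster 4 (1 cell labelled sham and 30 labelled UUO) was led by Apod, Spink1, Slc34a1 and Fmo2 and held Dcn at 6488 CPM in its cells labelled UUO. Cluster 7 (6 cells labelled sham) was led by the tubule transcripts Lcn2, Umod and Clu, and cluster 6 (14 cells labelled sham and 9 labelled UUO) by the endothelial transcripts Lrg1, Fabp4, Cldn5 and Sox17. None of these 5 clusters was led by pericyte, smooth muscle or renin genes, but cluster 6 labelled sham carried pericyte transcripts beside the endothelial ones. Its median cell held Rgs5 at 1848 CPM, and its summed levels were 251.5 CPM for Higd1b, 111 for Mcam, 185 for Notch3 and 555 for Ren1. A few cells carried these 4 sums. The 3 highest cells of each gene held 91.2%, 66.7%, 72% and 84% of its UMIs, in the same order. The median cell was at 0, 64.3, 38.3 and 127.5 CPM.

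Clusters 3 and 5 held most of the renin transcripts, and cluster 5 most of the contractile ones of the library labelled UUO. Cluster 3, with 35 cells labelled sham, held Ren1 at 29140 CPM, Rgs5 at 1876 with a median cell at 1551, Higd1b at 248, Mcam at 55.7 and Akr1b7, an aldose reductase-like gene of renin cells, at 464 CPM. Leukocyte genes such as Cd74, Il1b and H2-Aa were among its leading genes, so it was left without a name. Of its Cd74 UMIs, 94.9% came from the 2 cells with 20 or more, a cut set after the data had been seen, neither of them with 10 or more Ren1 UMIs. Cluster 5, with 26 cells labelled UUO, held Rgs5 in every cell at 6515 CPM, Acta2 at 12110, Ren1 at 7654, Tagln at 5894 and Myh11 at 1061 CPM. It was led by Cnn1, Myh11, Rgs5, Mustn1, Hopx and Cox4i2. Of the fixed marker sets, 6 of 10 for smooth muscle, 5 of 10 for pericytes and 4 of 6 for renin cells were at least 4-fold above the other members in cluster 5. The 3 kinds of cell did not separate from each other within either library in this clustering.

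**Figure D2:**
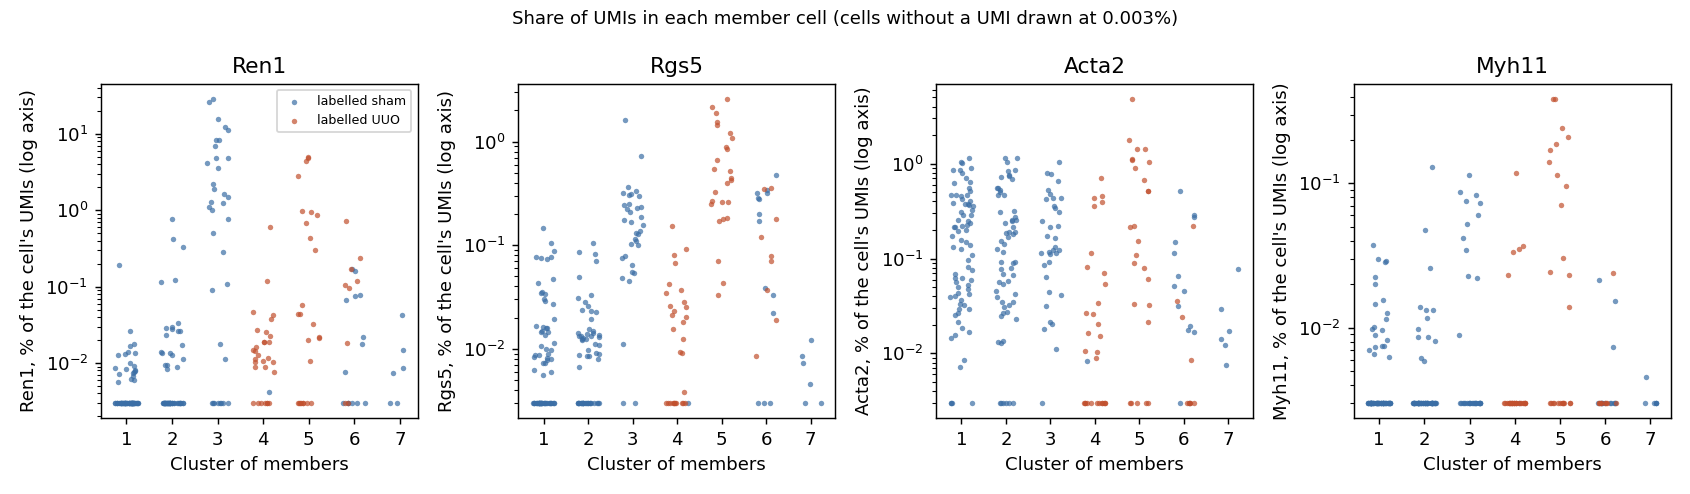
Ren1, Rgs5, Acta2 and Myh11 in each member cell as a percent of the cell's UMIs (y axis, log scale, cells without a UMI drawn at the bottom), by cluster (x axis) and library. Ren1 is highest in clusters 3 and 5, Rgs5 is high in clusters 3, 5 and 6, and Acta2 is spread over clusters 1, 2, 3 and 5.

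**Figure D3:**
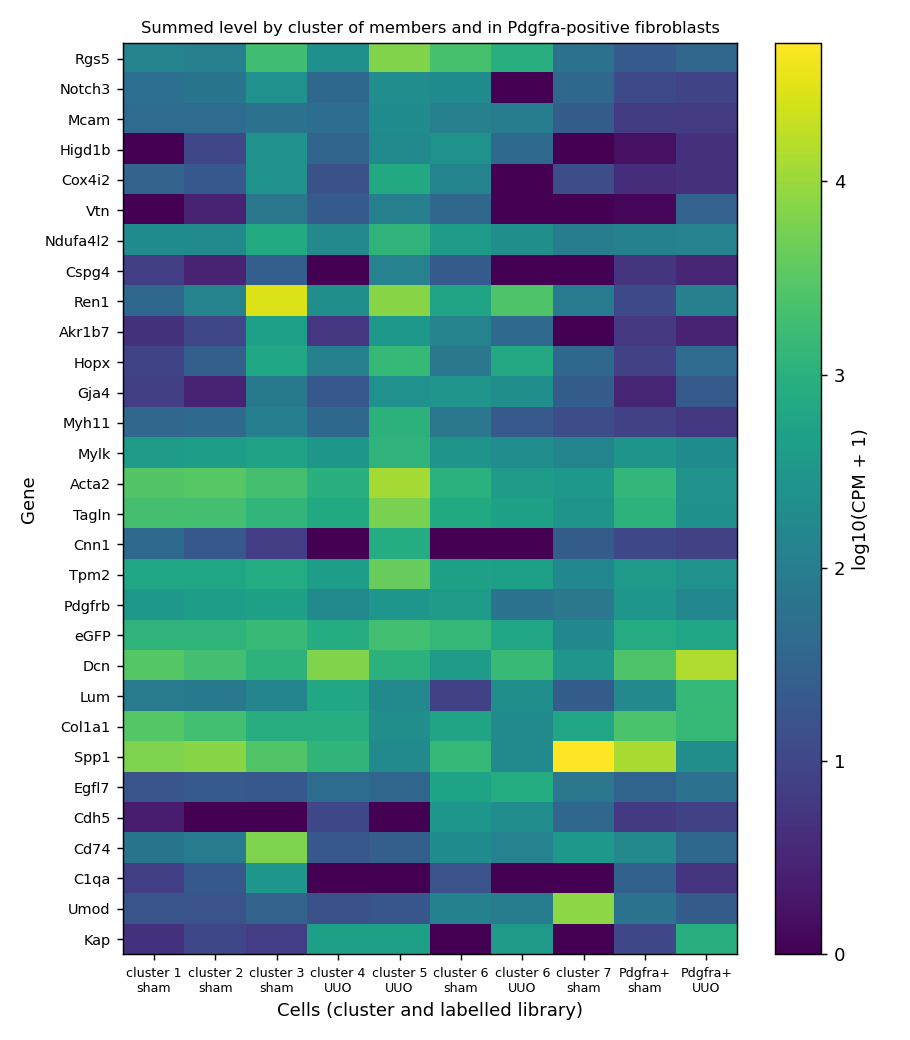
Levels of 30 genes (rows) as log10 of CPM plus 1 in the clusters of members, split by library (columns). Renin genes are high in cluster 3 labelled sham and cluster 5 labelled UUO, Rgs5 also in cluster 6, and fibroblast genes in clusters 1, 2 and 4. Acta2 is high in cluster 5 labelled UUO, at 12110 CPM, and lower in cluster 3 (2142) than in clusters 1 (2849) and 2 (3123).

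For this reason the results below are given for all members and for the marker-rich cells, those with at least 5 of the 8 markers, a cut set after the data had been seen. These were 23 cells labelled sham, 0.216% (0.137 to 0.324) of retained barcodes, and 13 labelled UUO, 1.24% (0.660 to 2.10), with 184581 and 75764 UMIs and medians of 4759 and 4997 UMIs per cell. Of the 23, 17 were in cluster 3 and 5 in the endothelial-like cluster 6. Cells of 19534, 27259 and 23333 UMIs were among these 5, so they weigh on the summed levels labelled sham. Of the 13, 12 were in cluster 5. Pdgfrb, 1 of the 2 receptors of the sort, had a UMI in 20 of 23 and 10 of 13 cells, and eGFP in 22 of 23 and 13 of 13. Pdgfrb stood at 585 CPM in the marker-rich cells labelled sham, against 296 in fibroblasts, and at 396 against 154 CPM in the library labelled UUO. Among the marker-rich cells labelled sham, 4 were among the barcodes with the highest doublet scores, and among those labelled UUO 0 were.

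Renin was unevenly spread over the members. Ren1 (ENSMUSG00000070645.5, chr1:133350510-133360325 on the plus strand of GRCm38, a protein-coding gene) was detected in 83 of 194 members labelled sham and 48 of 65 labelled UUO. Some mouse strains carry an additional, near-identical renin gene, whose reads would be counted as Ren1. The summed level of Ren1 was 2853 CPM in the former and 2761 in the latter, from 4888 and 1063 UMIs, a difference of 1.03-fold (0.967 to 1.10) that lay within counting error. The 10 cells with the most Ren1 held 81.4% of the members' Ren1 UMIs in the library labelled sham and 91.9% in that labelled UUO. A cut at 10 UMIs, set after the data had been seen, left 26 and 12 Ren1-rich members, 13.4% and 18.5% of the members, which held 97.7% and 94.3% of those UMIs. Between 5 and 20 UMIs lay 10 and 7 members. Ren1-rich members were 0.244% (0.159 to 0.357) of retained barcodes labelled sham, against 1.14% (0.591 to 1.98) labelled UUO.

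The median Ren1-rich member held more Ren1 in the library labelled sham than in the library labelled UUO, while the ranges overlapped. Those labelled sham held a median of 81 Ren1 UMIs, 2.07% of the cell's UMIs, with a highest share of 28.8%. Those labelled UUO held a median of 38.5 UMIs, 0.911% of the cell's UMIs, with a highest share of 4.92%. Summed over the Ren1-rich cells, the level was 33850 CPM in the library labelled sham and 17280 in that labelled UUO. In the library labelled sham 22 of the 26 lay in cluster 3, and in the library labelled UUO 9 of the 12 lay in cluster 5.

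Ren1-rich cells also carried vascular transcripts, which for Rgs5 and Myh11 is partly built in, since a member with Ren1 needs at least 2 of the other 7 rule genes. Rgs5 had a UMI in 24 of 26 and 12 of 12, and Acta2 in 25 of 26 and 11 of 12. Myh11 was detected in 11 of 26 and 8 of 12. Akr1b7 was detected in 16 of 26 and 9 of 12, against 15 of 168 and 5 of 53 of the other members. The summed level of Akr1b7 was 546 CPM in the Ren1-rich cells labelled sham and 500 in those labelled UUO. Of its 77 UMIs in those labelled sham, 1 cell held 50. The median Ren1-rich cell was at 228 CPM labelled sham and 289 labelled UUO. Dcn was lower in the Ren1-rich cells than in all members, at 475 against 2098 CPM labelled sham and 1207 against 4213 labelled UUO.

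Genes that followed Ren1 from cell to cell were sought among 2977 genes with at least 50 CPM, by Pearson's correlation on log levels. In the 194 members labelled sham the highest values were those of Ptp4a3, a tyrosine phosphatase gene (r = 0.58), the homeodomain-only gene Hopx (0.54), Akr1b7 (0.54), Tinagl1 (0.49), Sncg (0.47), Id1 (0.46), Igfbp5 (0.46) and Mustn1 (0.45). In the 65 members labelled UUO the same genes stood at 0.41, 0.37, 0.56, 0.49, 0.13, 0.28, 0.19 and 0.14. The cells of a library share their preparation and differ in depth, Ren1 was among the genes of the rule, and the values are a description only.

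Renin transcripts were also found outside the members. Ren1 had a UMI in 5.65% of fibroblasts and 2.91% of endothelial cells in the library labelled sham, at median depths of 8781 and 3814 UMIs. In the library labelled UUO it had a UMI in 32.6% of fibroblasts and 27.3% of endothelial cells, at 5857 and 5669 UMIs. With every cell thinned to 1000 UMIs, Ren1 was detected in 17.3% of members and 1.12% of fibroblasts labelled sham, and in 33.3% of members and 8.03% of fibroblasts labelled UUO. Single Ren1 UMIs in a member, above all in the library labelled UUO, therefore lie within what cells of other types show. Rgs5 had a UMI in 10.0% and 12.9% of fibroblasts before thinning. After it, the shares were 2.04% and 3.89%, against 28.3% and 57.1% of thinned members. Both genes belong to the rule and fibroblasts had fewer than 3 rule markers, so these gaps are partly built in.

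The bases before the transcription start of Ren1 and of 2 contractile genes are given here because their transcripts are abundant in the members and because the table held them. Tagln, which had more UMIs than Myl9 in the members labelled sham, was not matched. All 3 were read from the RefSeq promoter table of GRCm38.p6 as 250 bases that end just before the start. Capitals mark a CArG box, the site bound by serum response factor, with at most 1 mismatch on either strand, and in Ren1 also the TATA box letters TATAAA. The Ren1 stretch is chr1:133350424-133350673 on the plus strand, Acta2 chr19:34255374-34255623 on the minus strand and Myl9 chr2:156775214-156775463 on the plus strand.
Ren1: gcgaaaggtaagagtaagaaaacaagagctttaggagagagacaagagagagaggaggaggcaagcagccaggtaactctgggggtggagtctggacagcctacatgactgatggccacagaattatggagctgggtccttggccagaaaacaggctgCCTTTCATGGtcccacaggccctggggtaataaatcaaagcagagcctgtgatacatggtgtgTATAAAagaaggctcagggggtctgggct
Acta2: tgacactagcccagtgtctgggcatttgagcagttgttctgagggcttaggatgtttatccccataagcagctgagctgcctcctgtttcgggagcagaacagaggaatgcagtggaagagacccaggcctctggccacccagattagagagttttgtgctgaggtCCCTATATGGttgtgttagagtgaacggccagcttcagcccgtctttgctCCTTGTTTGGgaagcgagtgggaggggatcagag
Myl9: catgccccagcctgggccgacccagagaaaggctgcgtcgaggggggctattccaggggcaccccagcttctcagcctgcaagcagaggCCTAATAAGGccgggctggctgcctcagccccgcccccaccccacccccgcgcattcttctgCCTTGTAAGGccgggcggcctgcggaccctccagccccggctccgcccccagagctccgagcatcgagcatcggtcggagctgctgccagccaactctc
In Ren1 the TATAAA letters begin 29 bases before the start and the CArG-like letters, with 1 mismatch, 92 bases before it. Acta2 has 2 CArG-like runs with 1 mismatch, 84 and 34 bases before the start, and Myl9 a run without mismatch at 161 and a run with 1 mismatch at 99. Over the contractile genes with Myh11 and Mylk, 21 of 26 matched the table with 25 promoters of 300 bases. A CArG box without mismatch was found in 2 of the 25 (8.0%, Myl6 and Myl9), against 535 of all 32851 promoters (1.63%), and with at most 1 mismatch in 36% against 21.1%. TATAAA was present in 16% of the contractile and 13.6% of all promoters. These are matches of letters, not measured sites.

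Set beside fibroblasts of the same library, the members stood apart in few genes. The comparison used 6372 and 402 Pdgfra-positive cells with fewer than 3 rule markers. Of 2746 genes with at least 50 CPM in either kind of cell of each library, rule genes left out, 5 (0.182%) were higher in members of both libraries by 4-fold or more after 5 CPM had been added to each value, and 0 were lower by as much. Taken singly, the library labelled sham gave 0.218% higher and the library labelled UUO 0.655%. The 5 were Hopx, Akr1b7, Esam, Sncg and Ptp4a3, of which all but the vascular adhesion molecule gene Esam have been met beside Ren1. Ptp4a3 was at 163 CPM in members and 26.5 in fibroblasts labelled sham, 6.17-fold (5.41 to 7.02) higher, and at 257 against 24.8 labelled UUO, 10.4-fold (7.53 to 14.4) higher. Hopx was 10.9-fold (8.89 to 13.3) and 13.8-fold (11.0 to 17.4) higher, and Sncg, the gene of gamma-synuclein, 12.4-fold (10.1 to 15.1) and 31.5-fold (20.6 to 49.7) higher. Acta2 was 1.95-fold higher labelled sham, where fibroblasts held 1314 CPM, and 17.0-fold higher labelled UUO, where they held 249.5. A single cell labelled UUO held 901 of the 1634 Acta2 UMIs of the members, and without it the latter ratio was 8.02-fold (7.22 to 8.92).

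The marker-rich cells differed from fibroblasts in more genes. Of 2944 genes, 43 (1.46%) were higher in them by 4-fold or more in both libraries and 23 (0.781%) were lower by as much. Taken singly, the library labelled sham gave 2.11% higher and the library labelled UUO 3.57%. Pcp4l1, a relative of Purkinje cell protein 4, was at 157 against 1.55 CPM labelled sham and 396 against 3.33 labelled UUO. That made it 101-fold (64.0 to 156) and 119-fold (55.0 to 285) higher. Sncg was at 309 against 6.50 and at 409 against 10.0 CPM, 47.5-fold (35.3 to 63.0) and 40.9-fold (23.6 to 71.3) higher. The olfactory receptor gene Olfr558 was at 135 against 0.0722 and 185 against 2.22 CPM, 83.2-fold (30.0 to 264) higher labelled UUO. All 3 were at 10.0 CPM or less in fibroblasts of both libraries.

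Renin-cell, pericyte and receptor genes were part of the same difference. Akr1b7 was at 417 against 4.97 CPM labelled sham and at 132 against 1.85 labelled UUO. Gja4, the gene of the arterial gap junction protein connexin 37, was 71.7-fold (45.3 to 110) and 15.6-fold (9.21 to 25.6) higher. Of its UMIs, 70.4% of 27 labelled sham and 70.8% of 24 labelled UUO came from 3 cells. Over all members labelled sham, 39 of the 60 Gja4 UMIs lay in the endothelial-like cluster 6 and 13 in cluster 3. Rgs4, a relative of Rgs5, was 93.4-fold (67.1 to 128) and 20.5-fold (11.7 to 35.1) higher. Ndufa4l2, a mitochondrial subunit gene abundant in pericytes, was at 769 against 115 and 1122 against 121 CPM. Ednrb, an endothelin receptor gene, was 10.4-fold (7.76 to 13.7) and 26.4-fold (14.0 to 48.9) higher. Mef2c, a transcription factor gene of muscle, was 9.09-fold (6.65 to 12.2) and 20.7-fold (14.1 to 30.0) higher.

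Counted by list, 4 of 10 pericyte genes outside the rule (Ndufa4l2, Vtn, Rgs4 and Gm13889) were at least 4-fold above fibroblasts in both libraries, with median log2 ratios of 2.62 labelled sham and 1.54 labelled UUO. Over all genes these medians were 0.06 and 0.07. Of all genes, 1.46% were higher and 0.781% lower in both libraries, and 2.11% labelled sham and 3.57% labelled UUO were higher singly. Of 16 contractile genes, 5 passed in both (Sncg, Pcp4l1, Mustn1, Map3k7cl and Crip1), and the count was 5 labelled sham against 15 labelled UUO, with medians of 0.76 and 3.46. Acta2 illustrates the difference, at 1.74-fold (1.58 to 1.92) labelled sham and 70.0-fold (63.8 to 77.0) labelled UUO. Without the cell with the most Acta2, the latter was 29.7-fold (26.2 to 33.6), and 10 of the 16 contractile genes passed labelled UUO with a median of 2.49, against 3.16% of 2978 genes. Of 10 renin-cell genes 3 passed (Akr1b7, Gja4 and Hopx). On the other side, Dcn was 2.92-fold (2.51 to 3.41) lower than in fibroblasts labelled sham and 8.45-fold (7.10 to 10.1) lower labelled UUO. Of 8 fibroblast genes 0 were higher and 2 were at least 4-fold lower in both.

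**Figure D4:**
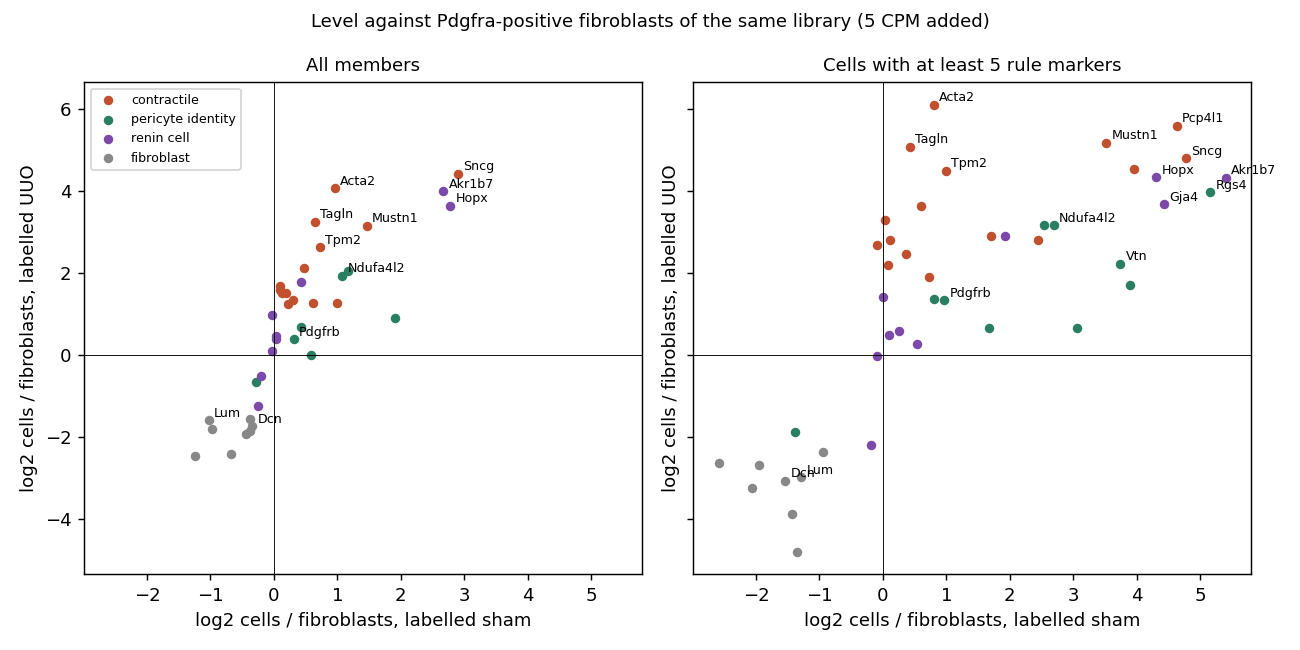
Log2 ratio of cells over Pdgfra-positive fibroblasts after adding 5 CPM, in the library labelled sham (x axis) and the library labelled UUO (y axis), for all members (left) and marker-rich cells (right). Points are the genes of the contractile, pericyte, renin-cell and fibroblast lists. Sncg, Pcp4l1, Hopx and Akr1b7 lie high on both axes in the right panel, Acta2 and Tagln high on the axis labelled UUO only, and the fibroblast genes below 0.

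Between the libraries, Rgs5, Cox4i2 and Myh11 were higher in members labelled UUO, and fibrillar collagens and other matrix genes in those labelled sham. Of 3775 genes with at least 50 CPM in either, 14.5% were higher by 2-fold or more in the library labelled UUO after adding 5 CPM, and 7.26% were lower by as much. Rgs5 was at 444 CPM labelled sham and 2208 labelled UUO, 4.97-fold (4.50 to 5.49) higher in the latter. Cox4i2, a cytochrome oxidase subunit gene that pericytes express, was at 54.9 against 231 CPM, 4.22-fold (3.12 to 5.69) higher. Mcam was at 49.0 against 101 and Higd1b at 46.1 against 75.3 CPM. Notch3 stood at 83.5 and 83.1 CPM, and Pdgfrb, at 369 against 203 CPM, was 1.82-fold (1.44 to 2.34) higher labelled sham. Of the 8 rule markers 3 were at least 2-fold higher and 0 lower, but the rule itself had chosen cells by these transcripts and the members differ in makeup between the libraries.

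In the marker-rich cells the order was the same for Rgs5. Its lowest, median and highest level per cell were 285, 2456 and 16030 CPM in the 23 cells labelled sham and 428, 5378 and 21730 in the 13 labelled UUO. The ranges overlap and the median is higher in the library labelled UUO. Of the Rgs5 UMIs, 45.5% of 484 labelled sham and 59.9% of 523 labelled UUO came from 3 cells. Those labelled sham lay in the endothelial-like cluster 6, so the summed level there is in good part theirs. Summed, Rgs5 was at 2622 against 6903 CPM, 2.63-fold (2.32 to 2.99) higher labelled UUO, Cox4i2 at 238 against 818, 3.43-fold (2.30 to 5.17), and Mcam at 103 against 290, 2.82-fold (1.46 to 5.51). Notch3 was at 298 against 304 CPM. In the marker-rich cells 21.7% of 4237 genes were higher labelled UUO by 2-fold or more and 15.9% were lower by as much. A large part of all genes thus crossed that line.

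Contractile genes were mostly higher in the marker-rich cells labelled UUO, and a single cell weighed heavily on them. Per cell, Acta2 ran from 166 through a median of 1659 to 10360 CPM in the marker-rich cells labelled sham, and from 611 through 7132 to 48250 in those labelled UUO. Summed, it was at 2292 against 17480 CPM, 7.63-fold (6.83 to 8.53) higher labelled UUO. Myh11, a gene of the rule, was at 157 against 1293 CPM, 8.23-fold (5.39 to 12.9) higher. Tagln, which binds actin filaments, was 5.28-fold (4.58 to 6.11), the myosin light chain gene Myl9 6.82-fold (5.79 to 8.06) and the tropomyosin gene Tpm2 7.94-fold (6.52 to 9.72) higher. Of the 24 contractile genes at level 18 were at least 2-fold higher and 1, Actg2 (20 UMIs against 0), was lower, with a median log2 ratio of 2.23 against 0.14 over all genes.

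One cell labelled UUO, with 6 of the 8 markers, held 901 of the 1324 Acta2 UMIs, 72 of the 98 Myh11 UMIs and 91 of the 93 Cnn1 UMIs of the 13 cells. It also held 123 of the 523 Rgs5 UMIs but 2 Ren1 UMIs. Without it, Acta2 was at 7410 CPM, 3.23-fold (2.82 to 3.71) above the library labelled sham, Myh11 at 456, 2.90-fold (1.64 to 5.10), Tagln 2.33-fold (1.93 to 2.80) and Tpm2 2.74-fold (2.11 to 3.56). Cnn1, the gene of calponin, then had 2 UMIs in each library. Of the 21 contractile genes then at level 9 were at least 2-fold higher and 1 lower, with a median of 0.78 against 0.25 over all genes, where 27.3% of genes were higher and 15.2% lower. Rgs5 was nearly unmoved without that cell, at 2.67-fold (2.34 to 3.06). In clusters 3 and 5, where 20.3% of 4079 genes were higher labelled UUO and 12.5% lower, 19 of 23 contractile genes were higher and 0 lower with that cell included.

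Over all members the direction of the summed levels of Acta2 and Tagln depended on that cell. With it, Acta2 was at 2564 against 4244 CPM, 1.66-fold (1.56 to 1.75) higher labelled UUO, and without it at 2564 against 2002, 1.28-fold (1.18 to 1.39) higher labelled sham. Tagln went from 1.28-fold (1.19 to 1.38) higher labelled UUO to 1.39-fold (1.26 to 1.54) higher labelled sham. With all cells kept, the median member was higher labelled sham for Acta2, at 1208 against 267 CPM, and for Tagln, at 1018 against 441. It was higher labelled UUO for Myl9, at 674 against 1635 CPM, and for Tpm2, at 422.5 against 505. Of 21 contractile genes 12 were at least 2-fold higher and 1 lower with the cell, and 6 of 20 higher and 1 lower without it, with medians of 1.26 and 0.59 and backgrounds of 14.7% higher and 6.90% lower in the latter case. Myl9 kept its direction, at 2.62-fold (2.42 to 2.83) higher labelled UUO with and 1.77-fold (1.62 to 1.94) without the cell, as did Tpm2, at 2.61-fold (2.36 to 2.89) and 1.28-fold (1.12 to 1.47). Myh11 did so too, at 7.53-fold (5.65 to 10.1) with and 3.60-fold (2.53 to 5.10) without the cell. Its UMIs were present in 25.8% of members labelled sham and 30.8% labelled UUO, and in 4.14% and 2.99% of fibroblasts.

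**Figure D5:**
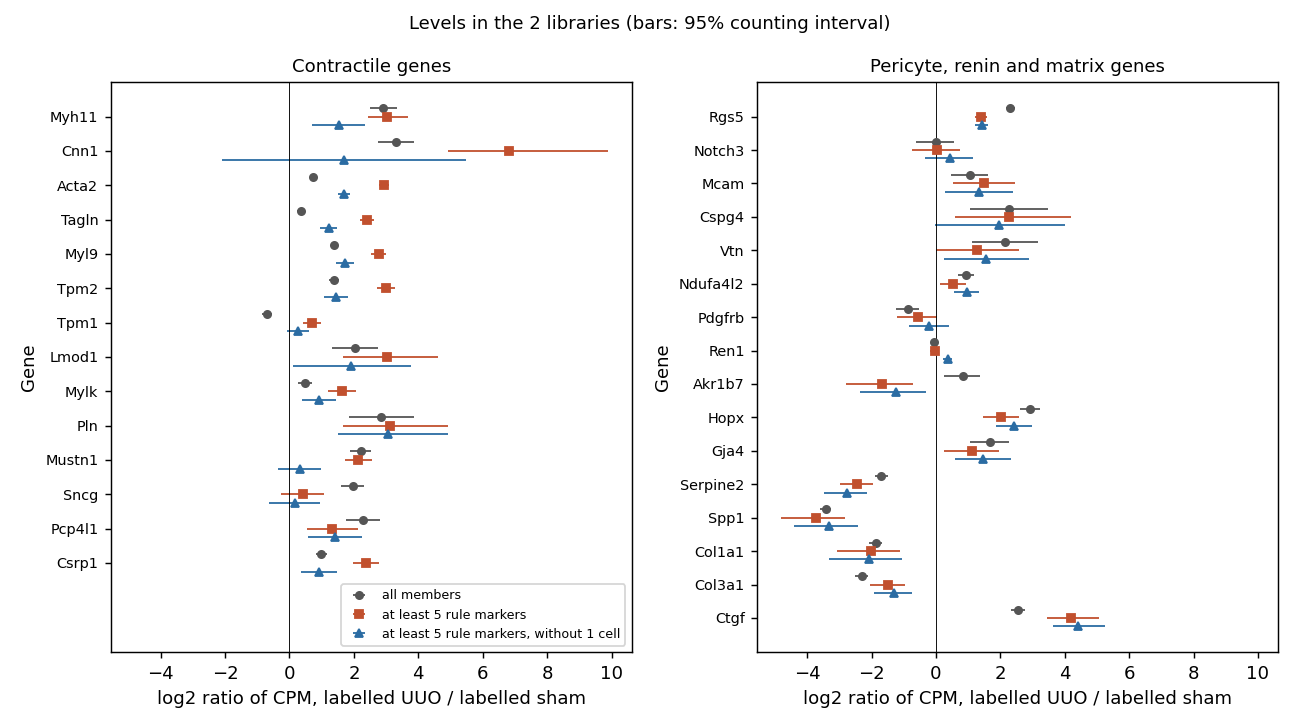
Log2 ratio of CPM, library labelled UUO over library labelled sham (x axis), with 95% counting intervals, for contractile genes (left) and pericyte, renin and matrix genes (right). Circles are all members, squares the marker-rich cells and triangles the marker-rich cells without the single cell with the most Acta2. Contractile genes shift to the left without that cell, while Rgs5, Hopx, Ctgf and the matrix genes drawn here move little.

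Genes of renin cells gave unlike values. In the marker-rich cells Ren1 was at 8251 CPM labelled sham and 8078 labelled UUO, and without the cell described above at 10690 labelled UUO, 1.30-fold (1.18 to 1.42) higher there. Per cell it ran from 0 through 916 to 261400 CPM and from 0 through 4382 to 47970. Hopx was at 238 against 964 CPM, 4.04-fold (2.74 to 6.02) higher labelled UUO, and 7.58-fold (6.11 to 9.45) higher over all members. Cpe, a carboxypeptidase gene of secretory granules, was 3.20-fold (2.26 to 4.53) and Gja4 2.17-fold (1.20 to 3.90) higher. Akr1b7 was 3.16-fold (1.63 to 6.85) higher labelled sham in the marker-rich cells, where 1 cell held 50 of its 77 UMIs, and 1.78-fold (1.20 to 2.59) higher labelled UUO over all members. Of 14 renin-cell genes 4 were at least 2-fold higher and 2 lower in the marker-rich cells, and of 11 in all members 3 were higher and 1 lower. Over all genes the shares were 21.7% higher and 15.9% lower in the marker-rich cells and 14.5% and 7.26% in members, so in the marker-rich cells the counts of the list lie near the background.

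Pericyte genes outside the rule lay closer together. Cspg4, the gene of the pericyte proteoglycan NG2, was at 27.1 against 132 CPM in the marker-rich cells, 4.87-fold (1.52 to 18.2) higher labelled UUO. Ndufa4l2 was at 769 against 1122, 1.46-fold (1.10 to 1.92), and the potassium channel gene Kcnj8 at 119 against 106 CPM. Of 14 pericyte genes 5 were at least 2-fold higher and 0 lower, with a median of 0.23, beside 21.7% higher, 15.9% lower and a median of 0.14 over all genes. Over all members 3 of 11 were higher and 0 lower, with a median of 0.80, beside 14.5%, 7.26% and 0.07 over all genes. Pdgfrb was 1.48-fold (0.978 to 2.30) higher labelled sham in the marker-rich cells, an interval that includes 1.

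Signalling genes gave mixed values. Hes1, a target of Notch receptors, was at 325 against 924 CPM in the marker-rich cells, 2.84-fold (1.98 to 4.08) higher labelled UUO, whereas Heyl, another target, was at 97.5 against 66.0. The Notch ligand gene Jag1 was at 54.2 CPM labelled sham, with 0 UMIs labelled UUO, where 3 UMIs would give 39.6 CPM. Of 5 Notch genes 3 were higher and 1 lower, and of 11 vasoactive receptor genes 4 were higher and 1 lower, beside 21.7% and 15.9% over all genes. P2rx1, the ATP receptor of arterioles, was counted 2 times against 16, 19.5-fold (4.58 to 175) higher labelled UUO. Gucy1b1, a subunit of the nitric oxide receptor, was 2.69-fold (1.38 to 5.30) higher. The angiotensin receptor gene Agtr1a, at 266 against 317 CPM, and Ednrb, at 287 against 264, had ratios whose intervals include 1. Mef2c was 2.44-fold (1.59 to 3.73) higher labelled UUO and Klf4 2.46-fold (1.16 to 6.03) higher labelled sham.

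Matrix genes were mostly higher in the members labelled sham. Over all members 15 of 24 fibrosis and matrix genes were at least 2-fold lower and 2 higher labelled UUO. The median log2 ratio was -1.59 against 0.07 over all genes, of which 7.26% were lower and 14.5% higher. In the marker-rich cells 10 of 23 were lower and 3 higher, with a median of -0.90, beside 15.9% and 21.7% over all genes. Without the cell with the most Acta2, 14 of 22 were lower and 3 higher, with a median of -1.43, beside 15.2% and 27.3%. With all marker-rich cells, Col1a1 was at 591 against 145 CPM, 4.07-fold (2.19 to 8.39) higher labelled sham, and Col3a1 at 1214 against 436, 2.79-fold (1.93 to 4.15). Serpine2, a protease inhibitor gene that mesangial cells also express, was at 2514 against 462 CPM, 5.44-fold (3.86 to 7.91) higher labelled sham. Timp1 had 49 UMIs in 15 of 23 cells labelled sham and 0 UMIs in the 13 labelled UUO. The basement membrane genes Sparc and Col4a2 were 4.43-fold (3.52 to 5.63) and 3.01-fold (1.83 to 5.24) higher labelled sham, and Lamb2, a laminin chain of vessel walls, 4.26-fold (2.00 to 9.51) higher labelled UUO. Of 18 basement membrane genes 7 were lower and 3 higher, beside 15.9% and 21.7% over all genes. Col1a1 was also higher labelled sham in fibroblasts, at 2399 against 1469 CPM.

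Ctgf, a matricellular gene, went the other way. It was detected in 9 of 23 marker-rich cells labelled sham, with a median of 0 CPM, and in 9 of 13 labelled UUO, with a median of 797. Summed, it was at 86.7 against 1597 CPM, 18.4-fold (10.9 to 33.3) higher labelled UUO, and over all members at 193 against 1128, 5.84-fold (5.05 to 6.75). Fibroblasts of the 2 libraries held 166 and 548 CPM. The chemokine gene Cxcl12 was 4.87-fold (3.36 to 7.17) higher in the marker-rich cells labelled UUO. Fibroblasts showed the same order for Cxcl12, at 540 against 2422 CPM, and for Spp1, at 13130 against 209.5. In the marker-rich cells Spp1 was at 1755 against 132 CPM, 13.3-fold (7.14 to 28.0) higher labelled sham. No test of whether the difference between libraries was particular to the members was possible.

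Across all genes, those furthest towards the library labelled UUO in the members were Apod, Olfr374, Gsta2, Fmo2, Gsta1, E2f1 and Rbp4. Apod, a lipid carrier gene, was at 2.92 against 486 CPM in members, from 5 and 187 UMIs, and at 36.6 against 730 in fibroblasts. Fmo2, a flavin monooxygenase gene, was at 4.09 against 252 CPM in members and 4.68 against 447 in fibroblasts. E2f1, a cell cycle regulator gene, was at 5.84 against 247 CPM and at 6.18 against 291. Furthest towards the library labelled sham were Nkd2, Rgs16, Spp1, Pla1a and Gstp2. Nkd2, which dampens WNT signalling, was at 124 against 5.20 CPM, 23.9-fold (6.54 to 199) higher from 213 and 2 UMIs, and in fibroblasts at 167 against 9.99. Rgs16 was at 288 against 20.8 CPM, 13.9-fold (6.99 to 32.3) higher, and in fibroblasts at 349 against 25.5. Each of these 5 described genes had the same order in fibroblasts as in members.

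Transcripts of other cell types moved with the libraries inside the members. The summed level of 12 tubule markers was 1222 CPM in members labelled sham, with Slc12a3 at 0, and 2776 in those labelled UUO, with Epcam and Slc12a3 at 0. The median member was at 111 against 1318 CPM, a wider gap than that of the sums. Of the 7 tubule genes at level in members, 4 were higher and 3 lower labelled UUO, Lcn2 and Umod being furthest to the lower side. These 2 genes led the 6 cells of cluster 7, all labelled sham. Lcn2 was at 5854 CPM there against 8.94 in the other members, and Umod at 8286 against 25.8. In the marker-rich cells the summed level was 162 against 2201 CPM, with 5 of 5 tubule genes at level higher labelled UUO. Over all genes 14.5% were higher and 7.26% lower in members, and 21.7% and 15.9% in the marker-rich cells. The tubule transcript Kap was in 53 of 65 members and 326 of 402 fibroblasts labelled UUO. Leukocyte markers summed to 962 against 72.7 CPM, with Ptprc at 0 in both libraries, and to 1581 against 52.7 in the marker-rich cells. Single cells labelled sham weighed on these sums, the highest being at 105800 CPM among members and 18860 among marker-rich cells. The median cell was at 151 against 0 CPM in members and at 332 against 0 in the marker-rich cells. Fibroblast markers were at 3052 against 6309 CPM in members, and at 1408 against 2623 in the marker-rich cells, where 6 of 11 genes were higher labelled UUO and 1 lower. Endothelial markers were at 705 against 1865 CPM in members and 1467 against 517 in the marker-rich cells. The order of the summed endothelial markers turned between the 2 sets of cells. The median cell kept its order, at 345.5 against 725 CPM in members and 534 against 600 in the marker-rich cells. The part of these transcripts in the differences between the libraries was not tested.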

How the data were processed

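The values deposited by the authors are expected counts (UMIs of each gene in each barcode), estimated with Salmon 0.13.1 (alevin) for mm10, per the submitters' processing notes. Of the non-zero values 92.3% (library labelled sham) and 91.2% (library labelled UUO) were whole within 1e-06. The deposited barcodes numbered 10812 and 1291. Barcodes were retained from 500 UMIs and 300 genes upward and up to 20% mitochondrial counts, and doublets were scored but not removed. The members and the gene lists were chosen with earlier results of these data known.

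Rounded counts were summed over cells per library and scaled to the same total (CPM). Ratios carry exact conditional binomial 95% intervals, and shares exact binomial ones. UMIs limit amplification error, but intervals and limits at 3 counts cover counting error only. Log2 ratios had 5 CPM added, and folds in the text did not. Differences between libraries were called at 2-fold and differences from fibroblasts at 4-fold in both libraries, among genes with at least 50 CPM. Fibroblasts were Pdgfra-positive cells with at most 2 rule markers and at most 1 exclusion gene, and endothelial cells had at least 3 of 6 markers. For shares, cells were thinned to 1000 UMIs and shallower cells left out. Members were clustered on 15 principal components with 15 neighbours at resolution 0.8 (scanpy 1.11.5, Python 3.11.15, SciPy 1.17.1, NumPy 2.4.6).

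Genes were named by rule: the rule markers, Pdgfrb and Acta2, the 12 highest and 12 lowest ratios with at least 100 CPM and 20 counts, the 15 furthest above and 8 furthest below fibroblasts, the extremes of each list, 8 leading genes of each cluster and 8 genes most like Ren1. The 12 highest and 12 lowest left out mitochondrially encoded genes, ribosomal protein genes, pseudogenes and the listed markers of other cell types. Some list members were named for their role. The Ren1-rich and marker-rich cuts, the 50 CPM limit on likeness to Ren1 and the removal of 1 cell were chosen after seeing the data. Gene positions are from GENCODE M21. Entries for Myh11, Tagln, Higd1b, Cox4i2 and Actg2 were not matched in the promoter table. On simulated counts at the members' totals, the true ratio lay in the interval for 95.6% of the 2858 genes left as they were, and 100% of 50 genes changed 4-fold up and 96% of 50 changed 4-fold down were called, but 32% of 50 changed 2-fold up and 52% of 50 changed 2-fold down, at the limit itself. Alternatives covered the number of markers, exclusion genes, UMI minimum, doublets, cell weights, scaling, pseudocount and minimum level.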

Additional observations from a re-analysis of the deposited data

Results flagged for a closer look

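Cells rich in renin were not confined to the members. In the library labelled sham 30 retained barcodes outside the members held at least 10 Ren1 UMIs, and in the library labelled UUO 5 did, data that the comparisons above leave out. A Pdgfra UMI kept out 24 of the 30 and 5 of the 5, and 17 and 3 of these had at least 3 of the 8 markers. A single Pdgfra UMI was present in 8 and 4. More than 1 exclusion gene was detected in 3 and 0, and fewer than 3 markers in 3 and 0. The highest count outside the members was 432 Ren1 UMIs in a cell labelled sham and 616 in a cell labelled UUO. Members held 68.3% of the 7155 Ren1 UMIs of retained barcodes labelled sham and 41.2% of the 2581 labelled UUO.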

How the results depend on the processing

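The makeup of the members depends on the marker minimum. With 4 of 8 markers there were 56 members (0.526%) labelled sham and 31 (2.95%) labelled UUO, with 5 of 8 markers 23 (0.216%) and 13 (1.24%), and with none of the exclusion genes 1.40% labelled sham and 43 (4.09%) labelled UUO. Genes at least 2-fold higher and lower labelled UUO numbered 918 and 675 with 5 of 8 markers, 1244 and 691 with the cell of most Acta2 also left out, 826 and 510 in clusters 3 and 5 only, and 1725 and 762 with a minimum of 10 CPM, which tests more genes. Against fibroblasts, 23 genes passed upward with 4 of 8 markers, 43 upward and 23 downward with 5 of 8, 43 and 21 with that cell also left out, and 0 upward with a pseudocount of 20 CPM, which shrinks ratios of low genes. The endothelial list turned sign, to -0.47 with 4 of 8, -1.70 with 5 of 8, -1.52 with the cell also left out and -0.25 in clusters 3 and 5. Single genes also turned. With 4 of 8 markers Ccl2 was at 0.21, Egfl7 -0.82, Fabp4 -0.32, Itga8 -0.22, Npy1r -0.16, Plvap -0.03 and Ptn 0.15. With 5 of 8 Egfl7 was at -2.46, Ehd3 -0.53, Igfbp3 -0.28, Kcnj8 -0.17, Npy1r -0.27, Plvap -1.53 and Rnd1 -0.03. With the cell also left out Egfl7 was at -2.11, Ehd3 -0.17, Id4 -0.51, Igfbp3 -0.38, Itga8 -2.09, Npy1r -0.43, Plvap -1.70 and Umod 0.32. In clusters 3 and 5 Fabp4 was at -0.46, Plvap -0.03 and Tgfb2 0.39. Without that cell alone, Cnn1 over all members was at -0.92. The cause of these turns was not tested. Of the 99 named genes, 0 with a ratio of 2-fold or more turned under the other alternatives. No paired analysis was possible because each group has 1 library, and for the same reason no library could be left out. Depth limits the marker-rich cells, where 3 UMIs correspond to 16.3 CPM labelled sham and 39.6 labelled UUO, or 52.6 without the cell with the most Acta2, which is above the 50 CPM limit.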
